A study of Mus musculus with 27 samples.

Results

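Mouse embryonic fibroblasts that had been given imidazole propionate (ImP) for 2 h were compared with the same cell type after 1 h, over 6 of the 27 libraries of the series. The 6 libraries were chosen by their labels, 3 for each time, and their counts were taken from the 1 table that holds all libraries. The series measured RNA by bulk sequencing in 3 mouse cell types to ask which transcriptional programmes ImP raises, in the setting of atherosclerosis. Gut bacteria produce ImP from the amino acid histidine. Both groups received ImP at 10 µg/mL, and the 3 unstimulated fibroblast libraries (0 h) enter only as a reference. The cells were plated in equal numbers in 6-well plates and left overnight before treatment. The labels name neither the mouse strain nor whether the fibroblasts are 1 line, nor separate cultures or animals for the replicates, so p-values speak only to the variation among these libraries, and that variation may be technical. No group at 1 or 2 h without ImP is named, and an effect of ImP cannot be told apart from one of time alone.

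Early response genes are transcribed within minutes of a stimulus from promoters whose transcription factors are already in the cell, and many of their transcripts decay fast, so that their levels can pass through a peak. They encode AP-1 subunits (the FOS, JUN and ATF proteins), zinc finger factors of the EGR family, inhibitors of MAP kinase and NF-kB signalling that act as feedback, factors that destroy short-lived transcripts, and secreted proteins such as CCN1. In fibroblasts the early response is known as the answer to serum and growth factors. Because early response transcripts differ in length, their differences are given here both as fitted and after a correction for the trend on length in every library.

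The 1 h libraries held 30554596 to 33133537 counts and the 2 h libraries 35676503 to 36489015. Levels are given as CPM, each gene's count scaled to a common library size after TMM normalisation. Of 11 fibroblast markers, 6 had a mean of at least 10 CPM in the 9 fibroblast libraries, among them Col1a1 with 2121 to 2605 CPM in the 6 compared libraries. Col3a1 was at 1.86 to 2.47 CPM, Thy1 was under 1 CPM in all 6, and the lumican gene Lum was at 0 in 5 of the 6. The first 1 h library stood apart. Its summed level of 15 interferon-stimulated genes was 500 CPM, against 195 to 274 CPM in the other 5 libraries, and its 12 macrophage markers summed to 70.8 CPM, against 25.6 to 52.9 CPM. Counts of genes are therefore also given without this library.

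The promoters of 4 genes are shown, each with all 3 libraries of 2 h below all 3 of 1 h as fitted. Irf1, a target of NF-kB, encodes a transcription factor of the interferon system, and Nfkbia encodes the NF-kB inhibitor IkB-alpha. Both are listed here with the NF-kB genes and not with the early response genes. Fos, an AP-1 subunit, and Plk2, a kinase, are listed with the early response genes. Each sequence is the 250 bases before the RefSeq start site on build GRCm38, 5′ to 3′ on the strand of the gene. They lie at chr11:53769764-53770013 (plus strand), chr12:55492648-55492897 (minus strand), chr12:85473640-85473889 (plus strand) and chr13:110394794-110395043 (plus strand), in the order given. Capitals mark matches to the motifs searched.
Irf1: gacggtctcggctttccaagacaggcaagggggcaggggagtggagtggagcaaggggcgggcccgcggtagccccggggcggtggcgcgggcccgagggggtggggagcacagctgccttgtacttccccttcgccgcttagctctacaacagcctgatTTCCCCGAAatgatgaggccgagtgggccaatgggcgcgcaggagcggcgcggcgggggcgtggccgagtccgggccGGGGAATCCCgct
Nfkbia: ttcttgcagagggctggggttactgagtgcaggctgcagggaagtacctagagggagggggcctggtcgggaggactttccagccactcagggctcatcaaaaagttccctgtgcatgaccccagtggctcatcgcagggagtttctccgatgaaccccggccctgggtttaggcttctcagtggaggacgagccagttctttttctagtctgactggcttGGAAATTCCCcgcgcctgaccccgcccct
Fos: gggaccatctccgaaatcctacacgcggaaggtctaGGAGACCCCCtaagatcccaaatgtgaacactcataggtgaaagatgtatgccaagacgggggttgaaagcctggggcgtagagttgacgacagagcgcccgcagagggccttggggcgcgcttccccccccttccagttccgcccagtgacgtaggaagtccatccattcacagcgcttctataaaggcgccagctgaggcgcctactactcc
Plk2: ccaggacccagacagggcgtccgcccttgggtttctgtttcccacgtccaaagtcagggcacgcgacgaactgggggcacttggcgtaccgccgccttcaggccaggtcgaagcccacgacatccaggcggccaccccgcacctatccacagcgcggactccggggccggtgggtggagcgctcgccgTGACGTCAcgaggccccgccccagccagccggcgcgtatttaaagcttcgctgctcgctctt
Searched on both strands were the NF-kB consensus, the CArG box bound by SRF, the cyclic AMP response element TGACGTCA, the AP-1 site TGANTCA and the interferon-gamma activated site TTCNNNGAA bound by STAT factors. Irf1 held an activated site, TTCCCCGAA, and an NF-kB match, GGGGAATCCC, which did not overlap. Nfkbia held 1 NF-kB match on the opposite strand, GGGAATTTCC, as did Fos, GGGGGTCTCC, and Plk2 held 1 cyclic AMP element. No CArG box or AP-1 site was found in these windows. Of 32817 RefSeq promoter windows of the same length, 3.9% held the NF-kB consensus, 1.47% the CArG box, 1.55% the cyclic AMP element, 6.75% the AP-1 site and 7.01% the activated site. A match describes letters and not a bound site.

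No gene differed between 2 h and 1 h at an adjusted p under 0.05 in edgeR's quasi-likelihood test over 14066 genes (0% called in either direction), and the smallest adjusted p was 0.142. At an unadjusted p under 0.05, edgeR gave 1709 genes (12.1%), of which 880 had higher and 829 lower values at 2 h. DESeq2 called 308 of the 5612 genes to which it gave an adjusted p, 242 higher (4.31%) and 66 lower (1.18%) at 2 h, and limma-voom called 0. Without the first 1 h library, edgeR called 222 genes higher (1.54%) and 143 lower (0.995%) at 2 h. DESeq2 and edgeR without that library shared 157 genes. The calls followed gene length: 154 of the 242 higher DESeq2 calls lay in the top length class when genes were split by exon length into 10 equal classes, and 48 of the 66 lower calls in the 3 shortest classes. Of the edgeR calls without the first 1 h library, 170 of the 222 higher lay in the top class. The 3 shortest classes held 61, 26 and 19 of the 143 lower. These classes split all genes tested that had a length, and how the 5612 genes spread over them was not counted.

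The libraries differed in the balance of short and long genes. For each library, the deviation of each gene from the mean of the 9 fibroblast libraries was ranked against the summed length of the gene's exons, over 11831 genes whose mean reached 1 CPM. The rank correlation was 0.0277, -0.367 and -0.435 in the 3 libraries of 1 h and 0.232, 0.304 and 0.226 in the 3 of 2 h. All 3 libraries of 2 h were thus tilted towards long genes, replicates 2 and 3 of 1 h towards short genes, and the first of 1 h was nearly level. The unstimulated libraries had -0.021, -0.0573 and 0.2. The mean correlation was higher by 0.512 at 2 h, with an exact permutation p of 0.1 (two-sided), the smallest that 3 against 3 libraries allow. Without the first 1 h library it was higher by 0.655. These are correlations across genes, which are not independent replicates, within libraries that share the mean they are set against. Against GC content of each gene's longest transcript, the correlations were -0.221, 0.0523 and 0.224 at 1 h. At 2 h they were -0.0319, -0.0913 and 0.0953, which overlap those at 1 h.

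**Figure D1:**
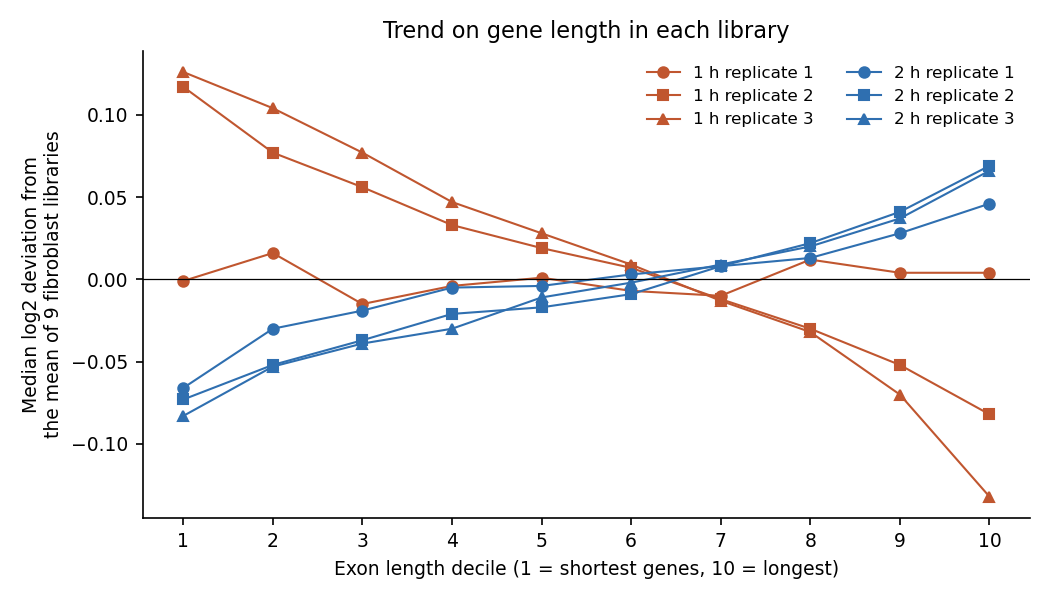
Median log2 deviation of genes from the mean of the 9 fibroblast libraries (y axis) in each of 10 classes of exon length (x axis, 1 shortest and 10 longest), 1 line per library, brown for 1 h and blue for 2 h, with circles, squares and triangles for replicates 1, 2 and 3. The 2 h lines end at 0.046 to 0.069 in the longest class, and 1 h replicates 2 and 3 at -0.082 and -0.132.

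The same tilt appeared in the fold changes. The median log2 fold change (2 h minus 1 h) was -0.20 in the shortest class, with a median exon length of 1082 bp, and 0.13 in the longest, with 12226 bp. Over all genes the median was -0.02, and 53.3% had lower values at 2 h. A second fit removed from each library its own smooth trend on exon length before the same test. Since the trend was fitted on these same libraries, flat values over length in that fit were set by construction. The medians of the 10 length classes lay between -0.012 and 0.003, and the length correlation of every library lay between -0.0096 and 0.0162. edgeR again called 0 of 14066 genes (0% in either direction), with 1032 at an unadjusted p under 0.05 (7.34%) and a smallest adjusted p of 0.308. DESeq2 called 16 genes, 11 higher (0.196%) and 5 lower (0.0891%), and limma-voom called 0. Of these 16, 14 were also among its 308 calls before the trend was removed.

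Most early response genes had lower values at 2 h than at 1 h, with a median nearer 0 once the length trend was removed. Of 65 genes listed, 63 were tested. The other 2, Egr4 and Dusp2, were at most at 0.194 CPM in any of the 9 libraries. Before removal 46 of 63 had lower values, with a median log2 fold change of -0.11, against -0.02 over all genes tested. The median of the length classes to which the 63 belong was -0.06, and 39 of the 63 lay below the median of their own class. After removal 40 of 63 had lower values, with a median of -0.05 against -0.01 over all genes. Removing the trend moved single members by -0.09 to 0.17. In both fits 39 members had lower values and 16 higher, 7 went from lower to higher, and 1 from higher to lower. In edgeR 0 members were called in either fit. At an unadjusted p under 0.05 it gave 10 with lower values (5.89% of all genes) and 0 with higher (6.26%) as fitted, and 3 lower (3.61%) and 2 higher (3.73%) with the trend removed. DESeq2 called 1, Plk2, before removal and 0 after. Of the 5612 genes to which it gave an adjusted p, it called 1.18% lower before removal and 0.0891% after. Members without such a value were counted as not called. All 3 libraries of 2 h lay below all 3 of 1 h for 7 members, against 9.11% of all genes, and above them for 2 members, against 9.28%. With the trend removed these were 4 members below, against 6.88% of all genes, and 5 above, against 6.92%. Without the first 1 h library the medians were -0.07 before and -0.02 after removal. Classes of members moved in different directions as fitted. The median was then lower for AP-1 subunits (-0.29 from -0.23), IER and related proteins (-0.21 from -0.16) and other early factors (-0.06 from -0.02). It was higher for the remaining classes, among them the mRNA decay factors (-0.04 from -0.19).

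**Figure D2:**
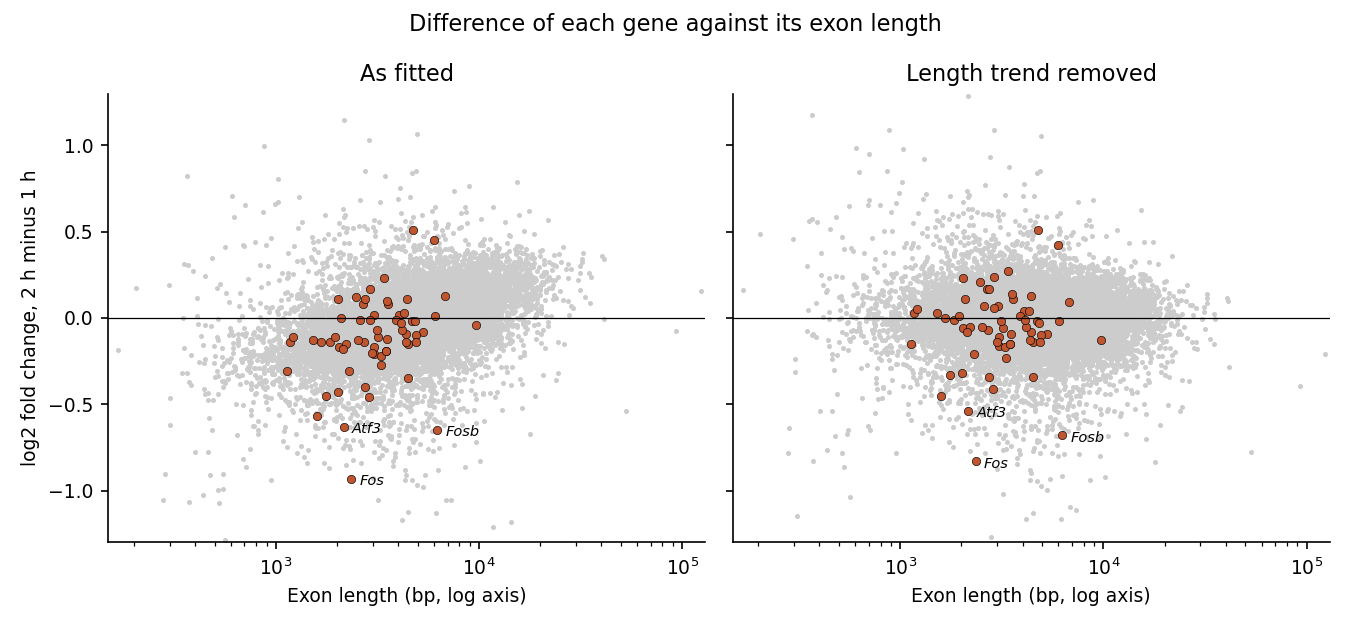
Log2 fold change of each gene, 2 h minus 1 h (y axis), against exon length (x axis, log scale), as fitted on the left and after correction for the trend on the right. Grey points are 11813 genes of at least 1 CPM, of which 20 lie outside the axis in either panel, and brown points are the 63 early response genes. The grey cloud is tilted on the left and level on the right, where the correction makes it so, and Fos, Fosb and Atf3 stay below -0.5 in both.

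The AP-1 subunits, which pair to bind AP-1 sites, held the early response gene with the most negative log2 fold change of the 63. Fos was at 4.16, 5.97 and 4.19 CPM in the 3 libraries of 1 h and at 2.73, 2.82 and 1.97 CPM in the 3 of 2 h. The groups did not overlap. The log2 fold change was -0.93 (SE 0.239, edgeR adjusted p 0.189), and -0.83 (SE 0.239, adjusted p 0.641) with the length trend removed. Fosb, a related subunit on a longer transcript, had 8.88, 17.3 and 14.2 CPM after 1 h and 11.1, 10.3 and 4.44 CPM after 2 h. Its groups overlapped, since the first 1 h library was below 2 libraries of 2 h. For Fosb the log2 fold change was -0.65 as fitted and -0.68 with the trend removed. Atf3, a stress-induced subunit that can repress, had 61.1, 41.8 and 34.2 CPM in the 1 h libraries and 35.8, 31.6 and 21.1 CPM in those of 2 h, with overlap at a single library on each side. Its log2 fold change was -0.63 (SE 0.233), or -0.54 with the trend removed. Without the first 1 h library, in which Atf3 was highest, these became -0.36 and -0.22. Without that library Fos differed by -1.01 as fitted and -0.89 with the trend removed, and Fosb by -0.87 and -0.91.

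Other AP-1 subunits had smaller differences. Junb went from 160, 218 and 199 CPM at 1 h to 178, 163 and 123 CPM at 2 h, with overlapping groups and a log2 fold change of -0.31, or -0.21 with the length trend removed. Jun differed by -0.11, or -0.06 with the trend removed. Fosl1, which encodes FRA-1, had 116, 148 and 152 CPM after 1 h and 153, 157 and 140 CPM after 2 h. It was the only one of the 8 subunits with a higher value at 2 h, by 0.11 as fitted and 0.23 (SE 0.081) with the trend removed, and in the second case its groups did not overlap. Fosl2, whose exons span 9680 bp, went the other way under removal, from -0.04 to -0.13, and its adjusted levels did not overlap either. The margin was narrow, since its lowest adjusted level at 1 h and its highest at 2 h both rounded to 157 CPM. Without the first 1 h library Fosl1 differed by 0.00 as fitted and 0.15 with the trend removed, and Jun by -0.06 and 0.00. Junb then differed by -0.42 and -0.3. Fosl1 and Fosl2 were named after their values were seen.

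**Figure D3:**
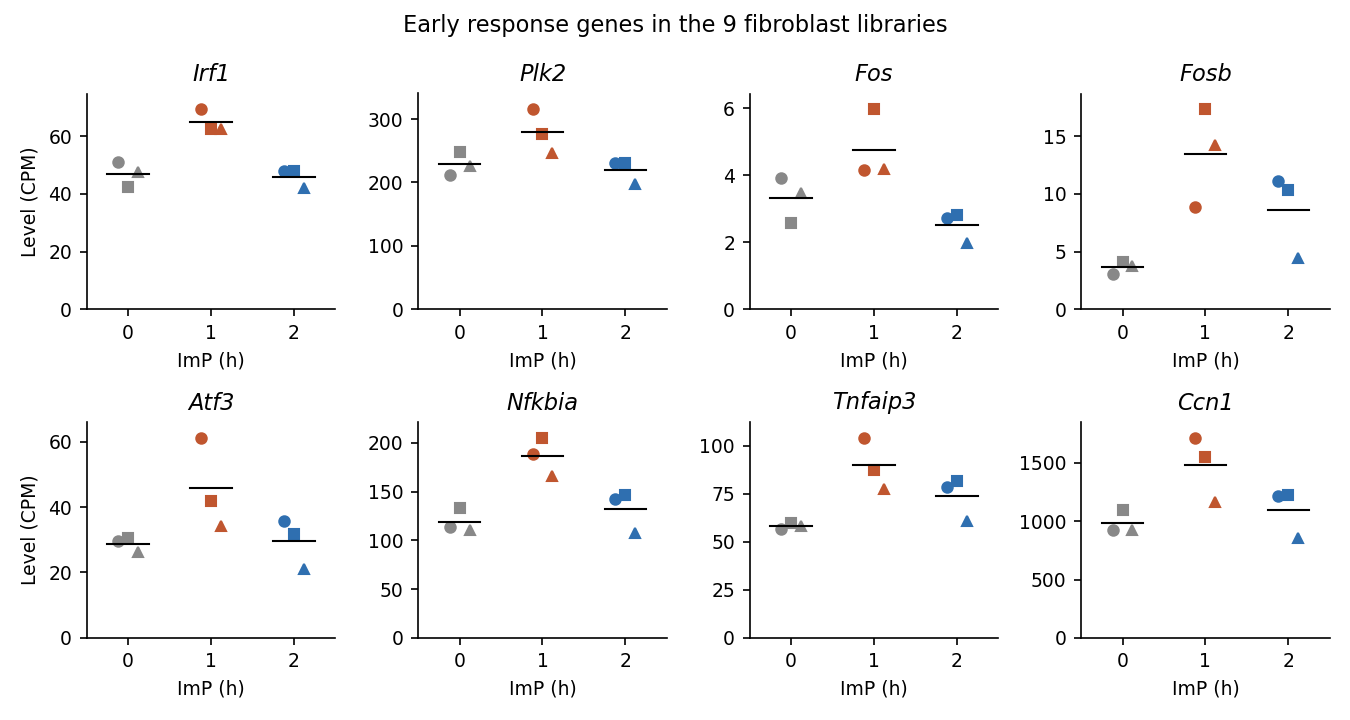
Level in CPM (y axis, from 0) of 8 early response and NF-kB genes in the 9 fibroblast libraries by time with ImP (x axis, h), with circles, squares and triangles for replicates 1, 2 and 3 and a bar for the mean of 3. Irf1, Plk2, Fos and Nfkbia have all 3 libraries of 2 h below all 3 of 1 h, and the other 4 overlap.

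Of the zinc finger and nuclear receptor factors, 6 of 10 had lower values at 2 h, and no member's groups failed to overlap in either fit. Egr1 had 68.4, 55.4 and 72 CPM in the 1 h libraries and 53.8, 69.5 and 53.4 CPM in those of 2 h, a log2 fold change of -0.15 that removal left at -0.14. Egr3, a later member of the same family, had 12.8, 19.4 and 18.9 CPM after 1 h and 22, 20.9 and 12.5 CPM after 2 h. The log2 difference was 0.11 and turned to -0.05 without the first 1 h library and to -0.02 without the first 2 h library. The nuclear receptor gene Nr4a1 was at 21 to 22.8 CPM at 1 h and 18.3 to 22.2 CPM at 2 h, a log2 fold change of -0.12. In all 3 genes the libraries of 1 h and 2 h overlapped.

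Levels against the unstimulated libraries differ between members. All such values share the 0 h libraries, and those at 1 h share their libraries with the main comparison, so they are given side by side and not as independent results. Irf1 differed from 0 h by 0.46 (SE 0.091) at 1 h and by -0.03 (SE 0.091) at 2 h. Fosb differed by 1.88 (SE 0.351) and 1.24 (SE 0.35), Egr3 by 0.93 (SE 0.212) and 1.04 (SE 0.212), and Nr4a1 by 0.61 (SE 0.114) and 0.49 (SE 0.113). For Nfkbia the values were 0.64 (SE 0.12) and 0.15 (SE 0.12), and for Tnfaip3 0.62 (SE 0.12) and 0.34 (SE 0.12). For Plk2 the values were 0.29 (SE 0.095) and -0.06 (SE 0.095). At 2 h Irf1 and Plk2 were thus within 1 SE of their unstimulated level, while Fosb and Egr3 were above theirs by more than 3 SE.

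Among the IER, GADD45 and other early response proteins, 13 of 14 had lower values at 2 h as fitted and 11 of 14 with the trend removed. Plk2, a polo-like kinase induced by serum and by p53, had 315, 276 and 247 CPM in the 1 h libraries and 230, 230 and 197 CPM in those of 2 h. All 3 libraries of 2 h were below all 3 of 1 h, also after removal of the trend. Its log2 fold change was -0.35 (SE 0.095, edgeR adjusted p 0.199) and -0.34 (SE 0.099, adjusted p 0.641) with the trend removed, and DESeq2 called it before removal (adjusted p 0.0307) and not after (adjusted p 0.146). Without the first 1 h library, where it was highest, edgeR gave -0.25. Btg2, an antiproliferative p53 target, differed by -0.40 (SE 0.142) and by -0.25 without that library.

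Other members of this class had values that removal of the trend brought near 0. Phlda1 had lower levels in all 3 libraries of 2 h, with 130, 138 and 131 CPM after 1 h and 126, 121 and 112 CPM after 2 h, a log2 fold change of -0.15. With the length trend removed its groups overlapped and the value was -0.05. Gadd45g, with exons of 1173 bp, went from -0.14 without overlap to 0.03 with overlap, and was named after its values were seen. Ier2, a short early response gene of unclear role, went from -0.13 to 0.03. Its 1 h libraries spread from 48 to 82.4 CPM, and its value was 0.10 without 1 h replicate 3 as fitted. Ier3, a regulator of cell survival, had 223, 200 and 131 CPM in the 1 h libraries and 166, 174 and 108 CPM in those of 2 h, with overlap and a log2 fold change of -0.31, or -0.15 with the trend removed. Ier3 differed by -0.14 and 0.09 without the first 1 h library, and Ier2 by -0.29 and -0.09.

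Of the other early transcription factors, Csrnp1 had no overlap in either fit, with 30.6, 30.8 and 29.7 CPM after 1 h and 27.6, 25.8 and 26.7 CPM after 2 h. The log2 fold change was -0.19 as fitted and -0.15 with the trend removed. Hes1, a repressor downstream of Notch, went from -0.17 without overlap to -0.06 with overlap. Myc differed by -0.14, or -0.07 with the trend removed.

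Of 12 feedback inhibitors of MAP kinase signalling tested, 7 had higher values at 2 h as fitted and 9 with the length trend removed. Dusp5, a nuclear phosphatase for ERK, had 96.7, 116 and 120 CPM in the 1 h libraries and 122, 124 and 115 CPM in those of 2 h. The log2 difference was 0.12 as fitted, and 0.21 (SE 0.076, edgeR adjusted p 0.641) with the trend removed, when its groups did not overlap. Spry4, a Sprouty inhibitor of receptor signalling, had 1.9, 1.24 and 1.96 CPM after 1 h and 2.08, 2.12 and 3.06 CPM after 2 h, without overlap and with a log2 fold change of 0.51 (SE 0.274) in both fits. Spred1 lost its separation with the trend removed, from 0.13 to 0.09, while Errfi1, an inhibitor of the EGF receptor named after its values were seen, gained it at 0.11. Dusp1, the phosphatase for p38 and JNK, was one of the 5 with lower values as fitted, at -0.27, and had 31.8 CPM in the first 1 h library and 15.7 to 23.6 CPM in the other 5 compared. Without that library its value was -0.04, and Dusp5 differed by 0.04 as fitted.

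The 3 genes for mRNA decay factors, which bind AU-rich elements of short-lived transcripts, had differences of -0.20 to 0.10 as fitted. Zfp36l1 had 78.7, 71.6 and 74.7 CPM in the 1 h libraries and 63.8, 68.1 and 64.2 CPM in those of 2 h, without overlap and with a log2 fold change of -0.20 (SE 0.071). With the trend removed its groups overlapped, at -0.14. Zfp36 differed by -0.19 and by -0.04 without the first 1 h library, and Zfp36l2 was higher by 0.10, or 0.14 with the trend removed, when its groups did not overlap. The highest adjusted level of Zfp36l2 at 1 h and its lowest at 2 h both rounded to 289 CPM. Without that library Zfp36l2 differed by 0.02 and 0.07.

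Among secreted early response proteins 7 of 9 had lower values in either fit. Ccn1, a matricellular protein and target of both SRF and YAP, had 1713, 1551 and 1168 CPM after 1 h and 1215, 1224 and 853 CPM after 2 h. The groups overlapped at 1 h replicate 3, and the log2 fold change was -0.43 (SE 0.17, edgeR adjusted p 0.359), or -0.32 with the trend removed. Ccn2, its relative, had 708, 556 and 341 CPM in the 1 h libraries and 464, 451 and 251 CPM in those of 2 h, a log2 fold change of -0.46 (SE 0.331). Without the first 1 h library, the highest for both genes, Ccn2 differed by -0.20 as fitted and Ccn1 by -0.16 with the trend removed. In both genes replicate 3 was the lowest of its group at either time.

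NF-kB is a family of transcription factors held in the cytoplasm by IkB inhibitors, whose genes are among its own targets. Of 43 genes of this system listed, 39 were tested, and 28 had lower values, with a median log2 fold change of -0.13, or -0.11 with the length trend removed. These medians were -0.10 and -0.07 without the first 1 h library. edgeR called 0 in either fit, while DESeq2 called 2 lower before removal (Irf1 and Nfkbia) and 1 after (Irf1). Its share called lower among genes with an adjusted p was 1.18% before removal and 0.0891% after. Of 10 inhibitors 8 had lower values as fitted and 7 after removal. Nfkbia had 189, 205 and 166 CPM after 1 h and 142, 147 and 108 CPM after 2 h, with no overlap and a log2 fold change of -0.49 (SE 0.12, edgeR adjusted p 0.176, DESeq2 adjusted p 0.0064). Its exons span 1610 bp, and with the trend removed the value was -0.36 (SE 0.129, edgeR adjusted p 0.641, DESeq2 adjusted p 0.207) with overlapping groups. Tnfaip3, which encodes the ubiquitin-editing inhibitor A20, had 104, 87.6 and 77.6 CPM in the 1 h libraries and 78.5, 81.6 and 60.6 CPM in those of 2 h. Its exons span 7226 bp, and removal took it the other way, from -0.29 with overlap to -0.34 (SE 0.115) without. The lowest adjusted level at 1 h was then 80.1 CPM and the highest at 2 h 79.9 CPM. Leaving out the first 1 h library, where Tnfaip3 was highest, gave -0.16 as fitted (edgeR adjusted p 0.524) and -0.23 with the trend removed.

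Irf1 had the smallest p of all genes with lower values at 2 h as fitted. The gene lies at chr11:53770014-53778374 on the plus strand, and its promoter with an NF-kB match and an activated site is printed above. It had 69.2, 62.5 and 62.4 CPM after 1 h and 47.8, 47.9 and 41.9 CPM after 2 h. Every library of 2 h was below every library of 1 h. The log2 fold change was -0.50 (SE 0.091, edgeR adjusted p 0.142), and -0.48 (SE 0.092, adjusted p 0.641) with the trend removed. DESeq2 called it in both fits (adjusted p 0.000613 and 0.00777). edgeR called it as fitted without the first 1 h library (-0.44, adjusted p 0.0269) and without a low-count filter (-0.49, adjusted p 0.0172), and over the alternatives to the first fit its adjusted p ran up to 0.556. With the trend removed and the first 1 h library left out, edgeR did not call Irf1 (-0.41, adjusted p 0.261). Over the alternatives to the second fit its adjusted p ran up to 0.996. Its exons overlap those of an unnamed gene model on the opposite strand.

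The 5 NF-kB subunits had higher values at 2 h as fitted, and 4 of 5 with the trend removed. Nfkb1, the p105 precursor with exons of 12061 bp, had 130, 143 and 154 CPM in the 1 h libraries and 166, 167 and 166 CPM in those of 2 h. It had no overlap at 0.22 (SE 0.074), and overlapped at 0.09 with the trend removed. Nfkb2 had no overlap in either fit, at 0.15 and 0.16, and was named after its values were seen. Of 8 chemokines, 7 had lower values, with a median of -0.49 that was -0.20 without the first 1 h library. Cxcl1, a neutrophil chemokine, ranged from 127 to 242 CPM at 1 h and from 78 to 165 CPM at 2 h, and its groups overlapped. Its log2 fold change was -0.49, or -0.23 without the first 1 h library. The inducible nitric oxide synthase gene Nos2 had 87.5, 41.1 and 18.3 CPM after 1 h and 43, 36.3 and 15.8 CPM after 2 h. Its log2 fold change of -0.63 (SE 0.618) was 0.10 without the first 1 h library. The median of the 8 cytokines and enzymes, Nos2 and Csf1 among them, was then 0.001 in place of -0.37. Csf1, the macrophage growth factor, had lower values without overlap in both fits, at -0.15 and -0.16. Cxcl1, Nos2 and Csf1 were named after their values were seen.

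Of 27 genes of the extracellular matrix and the contractile cytoskeleton tested, 20 had higher values at 2 h as fitted and 21 with the length trend removed, with medians of 0.10 and 0.09. All 3 libraries of 2 h were above all 3 of 1 h for 9 of 27 before removal, against 9.28% of all genes, and for 8 of 27 after, against 6.92%. edgeR called 0. DESeq2 called 5 higher before removal, against 4.31% of the genes to which it gave an adjusted p, and 1, Tnc, after, against 0.196%. Tnc, the matrix glycoprotein tenascin C, had 614, 579 and 536 CPM in the 1 h libraries and 717, 705 and 717 CPM in those of 2 h. Its log2 fold change was 0.31 (SE 0.067, edgeR adjusted p 0.142), and 0.24 (SE 0.057, edgeR adjusted p 0.641, DESeq2 adjusted p 0.044) with the trend removed. Fbn1, which encodes fibrillin 1, had 96.3, 93.7 and 101 CPM after 1 h and 123, 127 and 130 CPM after 2 h. It differed by 0.38 and by 0.25 with the trend removed, without overlap in either. Myh9, the heavy chain of nonmuscle myosin, went from 1522, 1789 and 1783 CPM to 2152, 2236 and 2161 CPM, a log2 fold change of 0.36, or 0.22 with the trend removed and 0.12 with the first 1 h library left out as well. Filamin A (Flna) and vinculin (Vcl) had no overlap in either fit, at 0.28 and 0.17 as fitted and 0.19 and 0.10 with the trend removed. With the trend removed, the highest level of Vcl at 1 h and its lowest at 2 h both rounded to 403 CPM.

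The YAP and TEAD genes split. Tead1, a DNA-binding partner of YAP, had 277, 264 and 234 CPM in the 1 h libraries and 327, 324 and 325 CPM in those of 2 h, a log2 fold change of 0.33 that was 0.19 with the trend removed. Amotl1, a YAP-binding motin, differed by 0.27 and 0.17, and its relative Amotl2 by -0.15 and -0.19, each without overlap in both fits. Of 10 genes of this list 5 had lower values, Ccn1 and Ccn2 among them, and its median was -0.06 in both fits.

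All 24 genes for large scaffold and chromatin proteins, with exons of 9294 to 41155 bp, had higher values at 2 h in both fits, with a median of 0.33 as fitted and 0.15 with the trend removed. Their groups did not overlap for 17 of 24 before removal, against 9.28% of all genes and 449 of 1398 in the longest length class, and for 9 of 24 after, against 6.92% of all genes. edgeR called 0 of the 24, or 20 as fitted without the first 1 h library (1.54% of all genes). With the trend removed and that library left out, it called 0 of the 24 (0.00696% of all genes higher). DESeq2 called 12 higher before removal (4.31% of the genes to which it gave an adjusted p) and 1, Hivep3, after (0.196%). Hivep3, a large zinc finger protein, had 34.8, 40.8 and 40.2 CPM after 1 h and 61.2, 56.5 and 60.4 CPM after 2 h. The log2 difference was 0.62 (SE 0.095, edgeR adjusted p 0.142), and 0.44 (SE 0.107, adjusted p 0.641) with the trend removed. Mdn1, a ribosome assembly ATPase, went from 0.57 to 0.36, and the ubiquitin ligase Huwe1 from 0.36 to 0.16.

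At the short end, all 77 cytosolic ribosomal protein genes had lower values at 2 h as fitted, with a median of -0.24, and 72 of 77 with the trend removed, with a median of -0.11. Their groups did not overlap, with 2 h lower, for 52 before removal, against 9.11% of all genes, and for 36 after, against 6.88%. In the 3 shortest length classes, 249 of 1400, 238 of 1397 and 205 of 1403 genes had no overlap with 2 h lower as fitted. Of the 77, 70 lay below the median of their own length class, whose median over the list was -0.13. DESeq2 called 26 lower before removal (1.18% of the genes to which it gave an adjusted p) and 1, Rpl12, after (0.0891%). edgeR called 0, or 50 lower as fitted without the first 1 h library (0.995% of all genes). With the trend removed and that library left out, it called 0 of the 77 (0% of all genes lower). Rpl12 had 743, 779 and 845 CPM in the 1 h libraries and 647, 611 and 620 CPM in those of 2 h, with -0.33 as fitted and -0.30 (SE 0.069, DESeq2 adjusted p 0.0482) with the trend removed. All 36 nuclear genes of oxidative phosphorylation had lower values as fitted, with a median of -0.26, and 31 of 36 with the trend removed, with a median of -0.10. Cox4i1, a subunit of cytochrome c oxidase, went from -0.32 to -0.17.

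The 13 mitochondrially encoded genes are short too, with exons of 204 to 1824 bp. Their median was 0.06 as fitted, against -0.20 for their length classes, and 9 of 13 were higher. The median as fitted was -0.02 without the first 1 h library. With the trend removed the median was 0.24 and 12 of 13 were higher. mt-Nd4l, a complex I subunit, had 109, 141 and 104 CPM after 1 h and 114, 134 and 156 CPM after 2 h, with overlap and 0.19 as fitted, and 0.46 without overlap after removal. mt-Co3 had -0.08 as fitted and the opposite sign after removal, 0.14. The trend was fitted over all genes together, and whether it holds for mitochondrial transcripts was not tested.

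**Figure D4:**
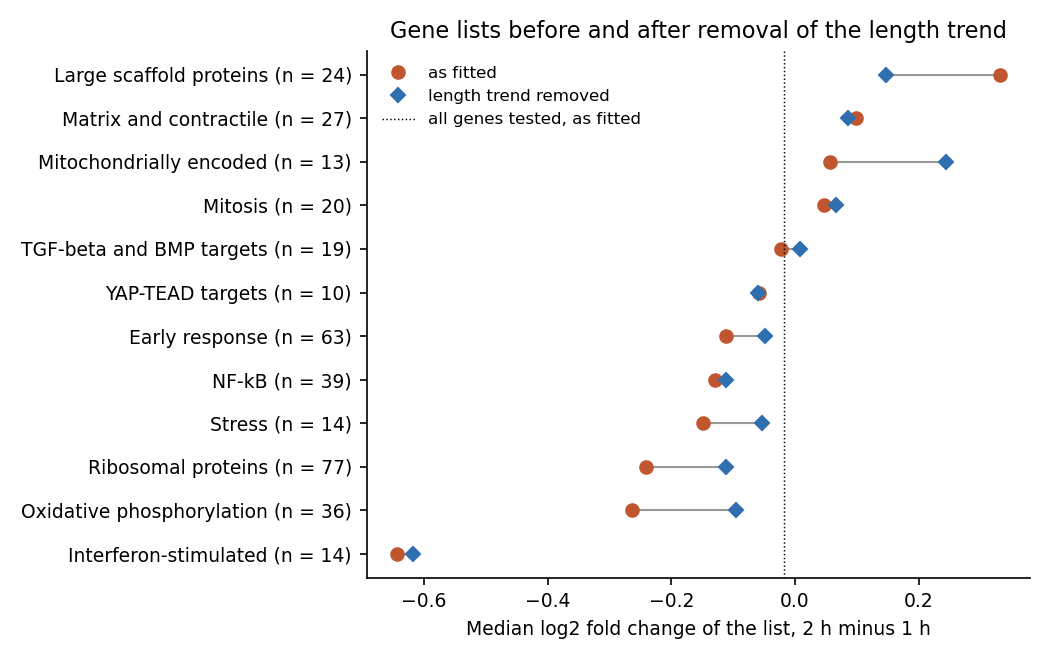
Median log2 fold change, 2 h minus 1 h (x axis), of 12 gene lists (y axis, with the number of genes tested), as fitted (circles) and with the length trend removed (diamonds), and the median of all genes tested (dotted line). Large scaffold genes move from 0.33 to 0.15, ribosomal protein genes from -0.24 to -0.11 and early response genes from -0.11 to -0.05.

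The genes with the smallest p did not pass edgeR's threshold in either fit. Predicted genes, clones, Riken models, noncoding RNAs, pseudogenes and genes with a mean under 1 CPM were left out of this ranking. Zfp469, given below, was left out in this way (edgeR p 3.03e-05 as fitted, unadjusted). Before removal, those with higher values at 2 h included Hivep3, Mast4, Zmiz1, Birc6, Prrc2c, Plec and Fbn1, with log2 fold changes of 0.35 to 0.62, edgeR adjusted p 0.142 each and exons of 12128 to 32326 bp. Those with lower values were Irf1, Polr2e, Churc1, Fopnl, Washc3, Rpl22, Mrpl14 and Rpl12, with -0.50 to -0.32, edgeR adjusted p of 0.142 to 0.155 and exons of 949 to 5806 bp. The lower genes hold an RNA polymerase subunit (Polr2e), a subunit of the WASH actin complex (Washc3) and mitochondrial and cytosolic ribosomal proteins.

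Several genes with small p in both fits had exons of 2670 to 7344 bp. Farp2, a guanine nucleotide exchange factor, had 11.5, 11.4 and 13.1 CPM in the 1 h libraries and 18, 18.4 and 18.3 CPM in those of 2 h. Its log2 fold change was 0.60 as fitted and 0.58 (SE 0.114, edgeR adjusted p 0.641) with the trend removed. Syne3, a nesprin of the nuclear envelope, differed by 0.35 and 0.33, and Polr2a, the largest subunit of RNA polymerase II, by 0.40 and 0.35. Polr2e, another subunit of the same enzyme, had a lower value at 2 h, -0.39 as fitted and -0.31 with the trend removed. Among the lower genes, Mpc2, a subunit of the mitochondrial pyruvate carrier, differed by -0.52 and -0.58, Churc1 by -0.50 and -0.53, Washc3 by -0.48 and -0.47 and Fopnl by -0.42 and -0.44. Of the genes named here, Farp2, Fopnl, Tnc, Zmiz1, Rpl12, Smim14, Ube2d3, Mast4, Birc6, Fbn1, Mrpl14, Cox4i1, Vcl, Nfkb2 and Irf1 have exons that overlap a gene on the opposite strand. So do the early response genes Jun, Junb, Fosl1, Csrnp1, Phlda1, Dusp1, Dusp5, Zfp36, Zfp36l1, Zfp36l2 and Ccn2. Exons of Hivep3, Huwe1, Plec, Churc1, Rpl12, Smim14, mt-Nd4l and mt-Co3 overlap a gene on the same strand. The counts of these genes are uncertain where the counting could split or share reads.

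Some values depended on how length was measured. Ube2d3, a ubiquitin-conjugating enzyme with exons of 24499 bp in all, differed by -0.14 as fitted and -0.36 with the trend on exon length removed, but by -0.14 with the genomic span in place of exon length. Over all settings of the second fit, the longest transcript among them, it ran from -0.41 to -0.14. Smim14, a small membrane protein, differed by -0.23 as fitted, by -0.39 with the trend on exon length removed and by -0.31 with the longest transcript. DESeq2 called Ube2d3 and Smim14 lower with the trend on exon length removed (adjusted p 0.0368 and 0.00126). Zfp469 was the 1 gene that edgeR called with the trend removed when the first 1 h library was left out, at 0.59 (adjusted p 0.0422, with 0.00696% of genes called higher), or when no low-count filter was set, at 0.53 (adjusted p 0.00249). DESeq2 called Zfp469 higher in both fits (adjusted p 6.77e-05 as fitted and 4.57e-05 with the trend removed). It had 109, 101 and 99.6 CPM after 1 h and 140, 147 and 142 CPM after 2 h. Its matched gene model is a noncoding RNA of 3082 bp, so the length used for it may not be that of the transcript counted, and it was named after its values were seen.

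Interferon-stimulated genes had lower values at 2 h in 14 of 14 tested, with a median of -0.64 as fitted and -0.62 with the trend removed. Ifit3, an interferon-induced antiviral protein, had 21, 5.22 and 3.21 CPM in the 1 h libraries and 2.42, 3.3 and 1.33 CPM in those of 2 h. The log2 difference was -2.06 (SE 0.694, edgeR adjusted p 0.312) and -0.84 (adjusted p 0.215) without the first 1 h library, and the list's median was then -0.09. Isg15, a ubiquitin-like modifier, had 49.6, 34.8 and 32.2 CPM after 1 h and 29.1, 28.4 and 23 CPM after 2 h, without overlap and with -0.53 (SE 0.147). With the trend removed its groups overlapped at -0.35, and -0.02 remained without the first 1 h library. The 12 macrophage markers had lower values at 2 h in all 12, with a median of -0.48, or -0.15 without the first 1 h library. None of the 12 was at 0 in any library, 5 had a mean under 1 CPM, and 2, Lyz2 and Cd68, had at least 10 CPM. Their part in the interferon and NF-kB values was not tested. In these bulk samples, fewer cells of a type and less RNA per cell cannot be told apart.

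**Figure D5:**
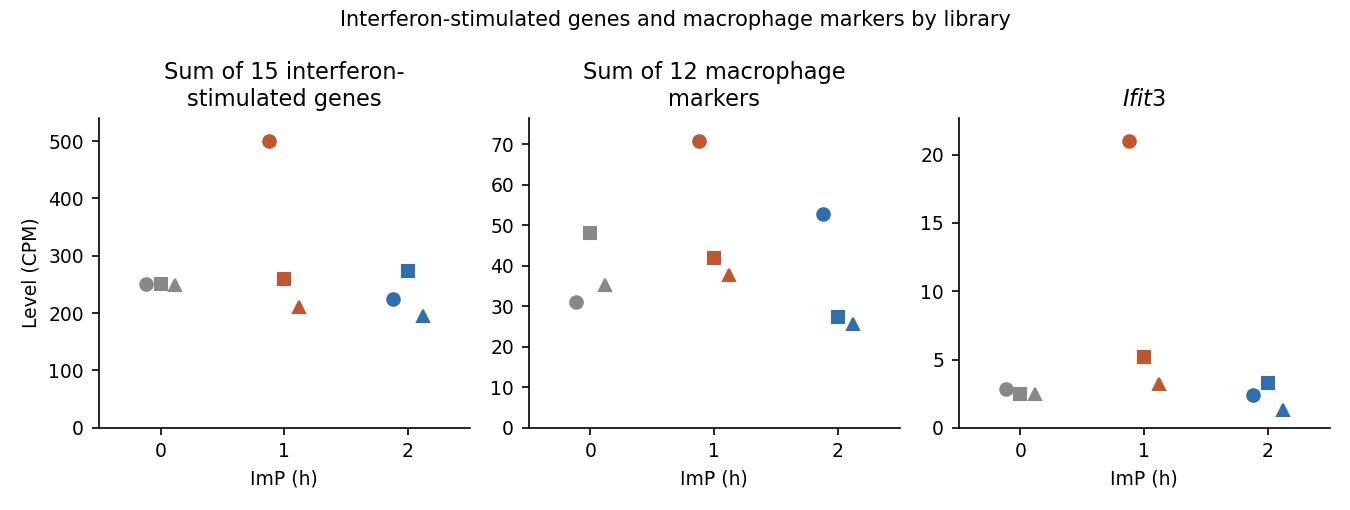
Summed level in CPM (y axis, from 0) of 15 interferon-stimulated genes and of 12 macrophage markers, and the level of Ifit3, in the 9 fibroblast libraries by time with ImP (x axis, h), with circles, squares and triangles for replicates 1, 2 and 3. The first 1 h library is the highest of all 9 in each panel, at 500, 70.8 and 21 CPM.

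For 19 targets of TGF-beta and BMP the median log2 fold change was -0.02, or 0.01 with the length trend removed. Of the Id genes, inhibitors of helix-loop-helix factors that answer to BMP, Id1 differed by 0.03 (SE 0.385) and Id3 by -0.23 (SE 0.191), both with overlapping groups. Id1 differed by -0.24 and Id3 by -0.38 without the first 1 h library. For 20 mitosis genes the median was 0.05, or 0.07 with the trend removed, for 14 clock genes -0.04 and -0.09, and for 17 genes of cholesterol synthesis -0.07 and -0.06. The 14 genes of the unfolded protein and amino acid stress responses had a median of -0.15, or -0.05 with the trend removed, and -0.04 as fitted without the first 1 h library. For 9 targets of p53, Plk2 and Btg2 among them, it was -0.20 in both fits and -0.02 as fitted without that library. For 10 components of the mTOR pathway, which ImP has been linked to, it was 0.14 as fitted and 0.06 with the trend removed. Nisch, which encodes the imidazoline receptor I1 and has been named as a receptor for ImP, had 317, 279 and 276 CPM in the 1 h libraries and 299, 299 and 327 CPM in those of 2 h. Its groups overlapped, and its value was 0.08 (SE 0.072) as fitted and -0.05 with the trend removed. It was 0.16 as fitted without the first 1 h library. Of these lists edgeR called 0 members in either fit. As fitted, DESeq2 called 3 mitosis genes higher (4.31% of the genes to which it gave an adjusted p). It called 1 p53 target, Plk2, lower (1.18%). Without the first 1 h library, edgeR called 3 mitosis genes and 1 clock gene higher as fitted (1.54% of all genes). With the trend removed, both counts were 0 for these lists.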

How the data were processed

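RNA of the 9 fibroblast libraries was sequenced from a strand-specific kit, per the labels. The submitters' processing notes name cutadapt, FastQC, STAR, RSEM, DESeq2 and R 4.3.2 with builds mm10 and GRCm38.p6. The strand setting of the counting is not given in the sources used here, so a gene and an overlapping antisense gene may share reads. The deposited table holds whole numbers, taken as the authors' expected counts from RSEM, the counter named. Of 25192 symbols, 98.1% matched GENCODE M21, which gave exon lengths.

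Genes passed edgeR's filter at a minimum count of 10. Counts were scaled by TMM and tested with edgeR 4.0.16 (robust quasi-likelihood F-test, two-sided, R 4.3.3), with the 3 times sharing 1 estimate of the spread and Benjamini-Hochberg adjustment at 0.05. The second fit added, per library, a loess curve (span 0.3) of deviations on log exon length as an offset, fitted on genes of at least 1 CPM. limma 3.58.1 and DESeq2 1.42.0 were alternatives. The code was tested on simulated data. Members and lists were chosen with earlier results of these data known. The text names genes by the smallest p in each direction and list, plus a preset set. Fosl1, Fosl2, Gadd45g, Errfi1, Nfkb2, Csf1, Cxcl1, Nos2, Vcl and Zfp469 were chosen after their values were seen. Replicates differed beyond sampling noise in all 9 pairs within a group. A gene that the naming rule picks is not reported here.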

Additional observations from a re-analysis of the deposited data

How the results depend on the processing

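The count of 0 genes called as fitted became 308 with DESeq2, 38 without a low-count filter (34 higher, 4 lower at 2 h) and 0 to 365 without 1 library in turn, where 365 arose without the first 1 h library and 0 without any other. With the length trend removed, 0 became 16 with DESeq2, 1 without a low-count filter and 0 to 1 without 1 library in turn. For DESeq2 and the left-out library the cause was not tested. The other settings (limma-voom, other scalings, a level minimum, the 6 libraries alone, GC trend, other length measures) left 0 calls. The mean length correlation stayed higher at 2 h under each alternative, by 0.331 to 0.655. Runs of library codes were tried as a replicate block, which gave 0 calls in both fits. Same-run deviations correlated at 0.154, 0.035 and 0.24, and deviations across runs at -0.218 to 0.047. Since 1 same-run value is under 0.1, the runs were not taken as pairs. Each 2 h library correlated best with the 1 h library of its own run, as did 1 h replicates 1 and 3 with theirs, while 1 h replicate 2 correlated best with 2 h replicate 1, which is a hint from the data and not from the design. RLE scaling moved the median of all genes to -0.01 and library totals to -0.03.

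Some differences near 0 turned sign, and their causes were not tested. With genomic span as the length, Jun was 0.004 and Nisch 0.05, with the longest transcript Nisch was 0.001, and with the GC trend removed as well Ier2 was -0.018 and Gadd45g -0.015. Without 1 library in turn, Fosl2 ranged from -0.082 to 0.029, Egr3 from -0.05 to 0.333, Ier2 from -0.294 to 0.103, Nos2 from -1.021 to 0.102, Id1 from -0.286 to 0.566 and Id3 from -0.383 to 0.011. With the length trend removed as well, the ranges were -0.134 to 0.003 for Jun, -0.035 to 0.341 for Egr3, -0.136 to 0.019 for Myc, -0.092 to 0.215 for Ier2, -0.384 to 0.09 for Ier3 and -0.024 to 0.105 for Gadd45g. They were -0.369 to 0.021 for Dusp1, -0.243 to 0.014 for Zfp36, -1.023 to 0.116 for Nos2, -0.081 to 0.697 for Id1 and -0.236 to 0.108 for Id3.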
